A study of Sus scrofa with 10 samples.

Results

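The steadiest genes of pig liver were the rows of the deposited expression table whose mean over 10 livers was 10 RPKM or more (reads per kilobase of gene, scaled to the mapped reads of the library) and whose highest value exceeded the lowest by at most 25%. They also had to carry a pig gene symbol outside 11 symbol prefixes, among them those of ribosomal proteins, proteasome subunits, respiratory chain subunits, solute carriers and F-box proteins. Of 25009 genes in the table, 3912 averaged 10 RPKM or more, 2509 of these were eligible by their symbol, and 35 met the limit, which is 1.39% of the eligible genes. The livers came from male pigs labelled high (5 libraries) or low (5 libraries) for growth and fatness, each labelled with age 175 and no unit. The labels name no treatment, breed or cross, and do not say whether each library came from a separate animal, so the spread between libraries may in part be technical. The values that chose the 35 genes are the same 10 values described here, so their narrow range is a description and not a finding, and no test is given for it.

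Genes expected to keep an even level across animals are used to normalise other measurements, and many of them serve basic cell functions. Much of what a hepatocyte makes, in contrast, is secreted protein and metabolic enzyme whose messages follow feeding, hormones and inflammation. A steady RPKM means a steady share of the sequenced RNA and not necessarily a steady number of molecules per cell, because each value is relative to all other reads of its library.

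Libraries were alike in summed RPKM, a value already scaled to the mapped reads of each library. Each library's values added up to 539327 to 567220 RPKM, 16195 to 16802 genes were above 0, and 13 messages encoded by mitochondrial DNA made up 10.1% to 20.2% of the total, with the highest share in low replicate 4. High replicates 1 and 5 stood apart in GFAP, a filament gene of astrocytes and also of hepatic stellate cells, with 3.66 and 4.22 RPKM where no other liver exceeded 0.35 RPKM. The number of reads behind these values is unknown, so no counting interval is given. The 9 matched stellate cell and fibroblast markers of 11 listed summed to 110 to 168 RPKM in high livers. In low livers they summed to 117 to 252 RPKM, so the largest sum was not in a liver high in GFAP. What sets GFAP apart was not tested. Hepatocyte markers were abundant in every library. The 23 matched hepatocyte genes of 29 listed summed to 85983 to 102833 RPKM in high livers and to 76194 to 107382 RPKM in low livers, against 8.88 to 18.4 RPKM in high livers and 9.21 to 21.97 RPKM in low livers for the 5 matched bile duct markers of 7 listed.

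The 35 genes covered a moderate band of levels. Their means ran from 10.1 RPKM (ZDHHC20) to 89.0 RPKM (TOMM7), with a median of 20.7 RPKM, close to the median of 22.2 RPKM over the eligible genes. By level, 17 of 1110 eligible genes with a mean of 10 to 20 RPKM were among them (1.53%), 15 of 832 between 20 and 50 RPKM (1.80%), 3 of 290 between 50 and 100 RPKM (1.03%) and 0 of 277 at 100 RPKM or more. The eligible genes at 100 RPKM or more also had the widest median ratio of highest to lowest value of these bands, 2.08, against 1.80 in the lowest band. Over all eligible genes the median ratio was 1.84, with quartiles of 1.54 and 2.44, and 40.5% varied more than 2-fold between livers. The coefficient of variation (SD over mean) of the 35 genes lay between 3.30% and 8.05% with a median of 6.32%, where the eligible genes had a median of 19.4%.

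**Figure D1:**
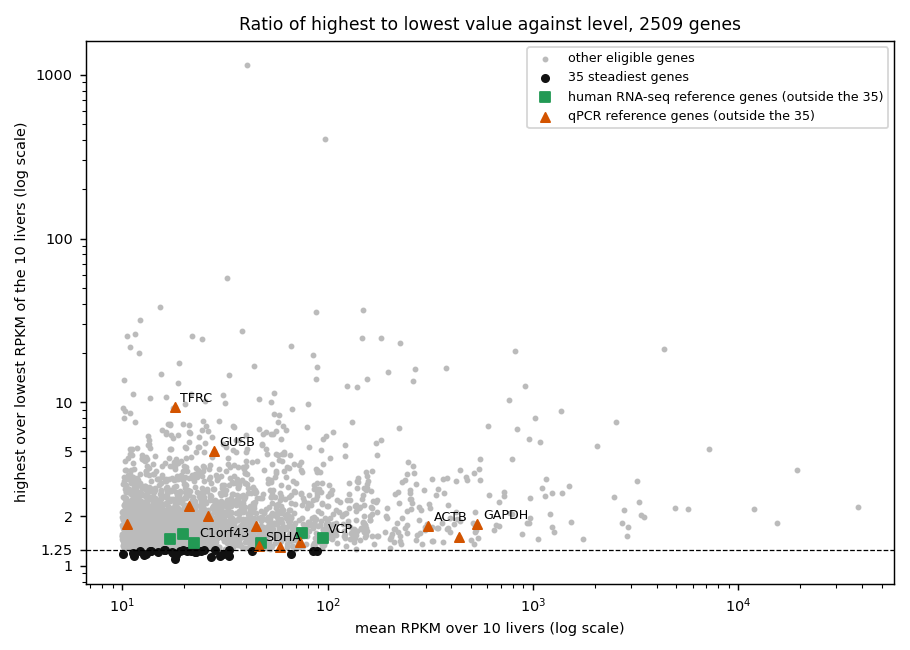
Ratio of the highest to the lowest RPKM of the 10 livers against the mean RPKM, both on log scales, for the 2509 eligible genes. The 35 steadiest genes (black) lie under the dashed line of the limit and below 100 RPKM, while the qPCR reference genes lie between 1.3 (HSP90AB1) and 9.32 (TFRC).

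Sorted by role, 7 of the 35 genes act in RNA processing, 7 in chromatin or elsewhere in the nucleus, 12 in membranes and their traffic, 5 in signalling and the cytoskeleton, and 4 in mitochondria or metabolism. These roles were assigned after the members were known. At the limit, the last genes inside were SEPTIN7 with a ratio of 1.244, NSFL1C with 1.245 and PPP2R5A with 1.246, and the first outside were FUBP3 with 1.255, KXD1 with 1.255 and PRKACA with 1.257.

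**Figure D2:**
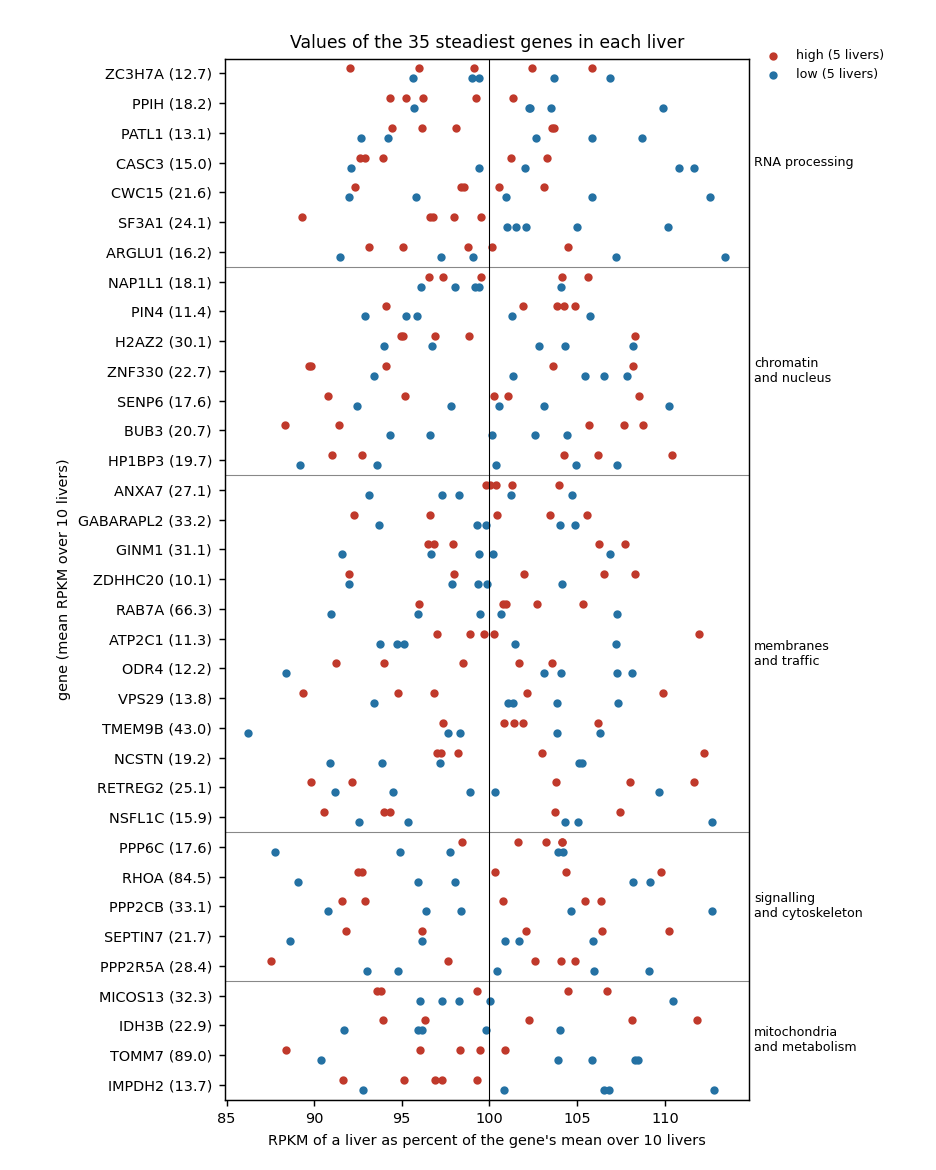
RPKM of each liver as percent of the gene's mean over the 10 livers for the 35 genes, grouped by role, with high livers in red above low livers in blue. All values lie between 86.3% and 113% of the gene's own mean, and only SF3A1 has high and low values that do not overlap.

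The genes of the nucleus held the smallest ratio of all. NAP1L1 (ENSSSCG00000000522), a histone chaperone, had 17.64, 19.14, 18.03, 18.87 and 17.49 RPKM in high livers and 17.76, 18.86, 17.97, 18.01 and 17.41 RPKM in low livers, a ratio of 1.10. The values of both groups covered the same narrow band. Its relative NAP1L4, at nearly the same mean level (20.5 RPKM), ranged 1.63-fold. PIN4 (ENSSSCG00000023312), a prolyl isomerase of the parvulin family, had 11.99, 11.65, 10.76, 11.87 and 11.92 RPKM in high livers and 10.62, 11.58, 12.09, 10.89 and 10.96 RPKM in low livers. High replicate 3 lay below the other high livers, inside the range of low.

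The histone variant gene H2AZ2 (ENSSSCG00000016738) had 28.6, 29.2, 28.6, 29.7 and 32.6 RPKM in high livers and 28.3, 31.4, 29.1, 32.5 and 30.9 RPKM in low livers, a ratio of 1.15. Its sister gene H2AZ1, which encodes a nearly identical histone, ranged 2.32-fold, between 16.7 and 38.9 RPKM. Where such close copies share sequence, the authors' counting could have split reads between them, which was not tested. SENP6, a protease that trims SUMO chains, had 17.6 ± 1.11 RPKM (SD, n = 10), and BUB3, which serves the spindle checkpoint, had 20.7 ± 1.46 RPKM. BUB3 was low in high replicates 4 and 5 (19.0 and 18.3 RPKM) and 21.9 RPKM or more in the other high livers, so its extremes both lay in the high group. HP1BP3, which binds heterochromatin, had 19.7 ± 1.52 RPKM, and ZNF330, a zinc finger protein gene, had 22.7 ± 1.70 RPKM.

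In RNA processing, the members came from several steps of splicing and message turnover. PPIH (ENSSSCG00000003964), the cyclophilin of the spliceosome's tri-snRNP, had 17.5, 18.4, 17.2, 17.3 and 18.1 RPKM in high livers and 18.6, 19.99, 18.8, 17.4 and 18.6 RPKM in low livers. Low replicate 2 was the highest and the groups overlapped. Other proteins of that particle varied more, with ratios of 1.42 for PRPF3, 1.57 for PRPF4, 1.91 for PRPF31 and 1.98 for PRPF8. CWC15, a protein of the active spliceosome, had 21.6 ± 1.34 RPKM, with 24.3 RPKM in low replicate 2 and 19.8 RPKM in low replicate 4. ARGLU1, a modulator of splicing, had 16.2 ± 1.09 RPKM, and CASC3, a core protein of the exon junction complex that marks spliced messages, had 15.0 ± 1.09 RPKM. RBM8A, another core protein of that complex, ranged 1.64-fold. PATL1, which links decapping factors in message decay, had 13.1 ± 0.728 RPKM, and ZC3H7A, a zinc finger protein that binds RNA, had 12.7 ± 0.603 RPKM.

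SF3A1 (ENSSSCG00000010002), a subunit of the SF3 complex in the U2 snRNP that recognises the branch site, was the single member whose groups did not overlap. It had 23.3, 23.3, 24, 21.5 and 23.6 RPKM in high livers and 24.5, 26.6, 24.4, 25.3 and 24.6 RPKM in low livers. The highest high liver (24 RPKM) lay just under the lowest low liver (24.4 RPKM). Means were 23.2 ± 0.948 RPKM in high and 25.1 ± 0.919 RPKM in low (SD, n = 5 each), a difference of -0.11 on the log2(RPKM + 1) scale (SE 0.09). Among all 10931 genes tested, 0.805% had groups that did not overlap, as did 0.957% of the eligible genes, and 1 of the 35 is 2.86%. The rule had used these values, so nothing is read from that share. The other matched subunits of the complex at 10 RPKM or more were SF3B2 with a ratio of 1.36, SF3A3 with 1.55, SF3B4 with 1.57 and SF3B6 with 1.73.

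The largest role group served membranes. RAB7A (ENSSSCG00000011615), the GTPase of late endosomes and lysosomes, had 69.9, 68.1, 66.8, 63.6 and 66.9 RPKM in high livers and 63.6, 65.9, 60.3, 71.1 and 66.8 RPKM in low livers. Its highest and its lowest value both fell in the low group, and the high livers lay between them. Of 17 other RAB genes looked up 8 were matched, all at 10 RPKM or more, and they ranged from 1.39-fold (RAB6A, of the Golgi) to 1.76-fold (RAB1A, of transport from the endoplasmic reticulum). VPS29, a subunit of the retromer that returns cargo from endosomes, had 13.8 ± 0.885 RPKM. Its partners in that complex had ratios of 1.32 for VPS35, 1.51 for VPS26A and 1.70 for VPS26B.

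GABARAPL2 (ENSSSCG00000002707), a member of the ATG8 family that decorates autophagosomes, had 30.6, 34.3, 32.1, 33.3 and 35.03 RPKM in high livers and 33.1, 34.8, 32.9, 34.5 and 31.1 RPKM in low livers. High replicate 1 was the lowest and high replicate 5 the highest, and the groups overlapped. Of its relatives, GABARAPL1 ranged 1.41-fold at 226 ± 29.7 RPKM, MAP1LC3B ranged 1.42-fold at 47.7 ± 5.59 RPKM and GABARAP ranged 5.51-fold, between 14.9 and 82.2 RPKM. ANXA7 (ENSSSCG00000010299), a calcium-dependent membrane-binding annexin, had 27.5, 28.2, 27.2, 27.1 and 27.1 RPKM in high livers and 26.4, 27.5, 28.4, 25.3 and 26.6 RPKM in low livers, and its coefficient of variation of 3.30% was the smallest of the 35. The high livers lay between 27.1 and 28.2 RPKM, inside the wider range of low. The other 6 annexins of this level ranged from 1.54-fold (ANXA11) to 3.80-fold (ANXA5).

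The remaining membrane genes were also of moderate level. ATP2C1, the calcium and manganese pump of the Golgi, had 11.3 ± 0.650 RPKM, with 12.6 RPKM in high replicate 5 and at most 12.1 RPKM elsewhere. ZDHHC20, a palmitoyltransferase, had 10.1 ± 0.550 RPKM, so it lay next to the level minimum as well. NSFL1C, the p47 cofactor of the ATPase VCP in membrane fusion, had 15.9 ± 1.2 RPKM, while VCP itself ranged 1.47-fold and the cofactor genes NPLOC4 and UFD1 1.48-fold and 1.55-fold. NCSTN, the nicastrin subunit of gamma-secretase, had 19.2 ± 1.22 RPKM, and its partners APH1A and PSEN2 ranged 1.73-fold and 1.94-fold. TMEM9B had 42.99 ± 2.5 RPKM, with its lowest value, 37.1 RPKM, in low replicate 1. RETREG2, of a family of receptors for autophagy of the endoplasmic reticulum, had 25.1 ± 2.02 RPKM and, at 8.05%, the largest coefficient of variation of the 35. GINM1, a membrane glycoprotein gene, had 31.1 ± 1.65 RPKM, and ODR4, whose counterpart in Caenorhabditis elegans brings odorant receptors to the membrane, had 12.2 ± 0.822 RPKM.

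Among signalling and cytoskeletal genes, 3 of the 5 encode protein phosphatase subunits. PPP6C (ENSSSCG00000005600), the catalytic subunit of protein phosphatase 6, had 17.3, 18.3, 17.9, 18.2 and 18.3 RPKM in high livers and 16.7, 18.3, 15.4, 17.2 and 18.3 RPKM in low livers. The lowest value lay in low replicate 3 and the upper ends of the groups coincided. PPP6R3, a regulatory subunit, ranged 1.3-fold and PPP6R2 1.92-fold. PPP2CB, a catalytic subunit of protein phosphatase 2A, had 33.1 ± 2.40 RPKM, and PPP2R5A, a B56 targeting subunit of the same enzyme, had 28.4 ± 1.90 RPKM. The paralogue PPP2CA, which is nearly identical in protein, ranged 1.61-fold at 57.9 RPKM, so reads shared between the pair are possible and were not tested. The scaffold genes of this enzyme varied most, with ratios of 2.03 for PPP2R1A and 2.36 for PPP2R1B.

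RHOA (ENSSSCG00000022080), the GTPase that drives actin stress fibres, had 84.8, 78.4, 88.2, 78.2 and 92.8 RPKM in high livers and 82.8, 92.3, 91.4, 81.1 and 75.3 RPKM in low livers. Both groups spanned nearly the whole range. The related GTPase genes CDC42 and RHOC ranged 1.67-fold and 1.70-fold. SEPTIN7, the septin that joins all septin filaments, had 21.7 ± 1.48 RPKM, while SEPTIN2, SEPTIN10 and SEPTIN9 ranged 1.37-fold, 1.5-fold and 1.92-fold.

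The 4 mitochondrial and metabolic genes included the most abundant member. TOMM7 (ENSSSCG00000015384), a small subunit of the pore through which proteins enter mitochondria, had 78.7, 85.4, 89.7, 87.5 and 88.5 RPKM in high livers and 80.4, 94.2, 92.4, 96.4 and 96.5 RPKM in low livers. The groups overlapped through low replicate 1, while the other low livers lay above all high ones. Its partners TOMM22, TOMM20 and TOMM40 ranged 1.75-fold, 1.87-fold and 2.68-fold. MICOS13 (ENSSSCG00000013524), which organises the junctions of mitochondrial cristae, had 32.3 ± 1.80 RPKM, with 35.6 RPKM in low replicate 3. Of the other genes of its complex at this level, APOOL ranged 1.63-fold, CHCHD3 1.85-fold and the core gene IMMT 2.08-fold.

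IDH3B (ENSSSCG00000007173), a subunit of the isocitrate dehydrogenase of the citric acid cycle, had 21.49, 22.03, 24.73, 23.39 and 25.58 RPKM in high livers and 23.79, 21.94, 22.83, 21.99 and 20.97 RPKM in low livers. Of the 13 other genes of that cycle at this level, SDHA (1.31-fold), FH (1.38-fold) and MDH2 (1.44-fold) varied least, and SUCLG2 (2.02-fold), OGDH (2.24-fold) and SUCLA2 (5.55-fold) varied most. IMPDH2, the enzyme that commits purines to guanine nucleotides, had 13.29, 13.23, 12.52, 12.99 and 13.56 RPKM in high livers and 14.55, 14.59, 13.77, 15.41 and 12.67 RPKM in low livers. Low replicate 5 fell among the high livers and the other low livers lay above them.

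In all, 18 complexes or families around the members were looked up after the members were known. Their 66 other genes at 10 RPKM or more had a median ratio of 1.63 (1.3 to 5.55), and 15 of them (22.7%) had a ratio of at most 1.5. Of the 2474 eligible genes outside the members, 510 (20.6%) did, with a median ratio of 1.86. That members are steadier than the other genes of their family follows from the rule, which also keeps the partners above the limit.

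**Figure D3:**
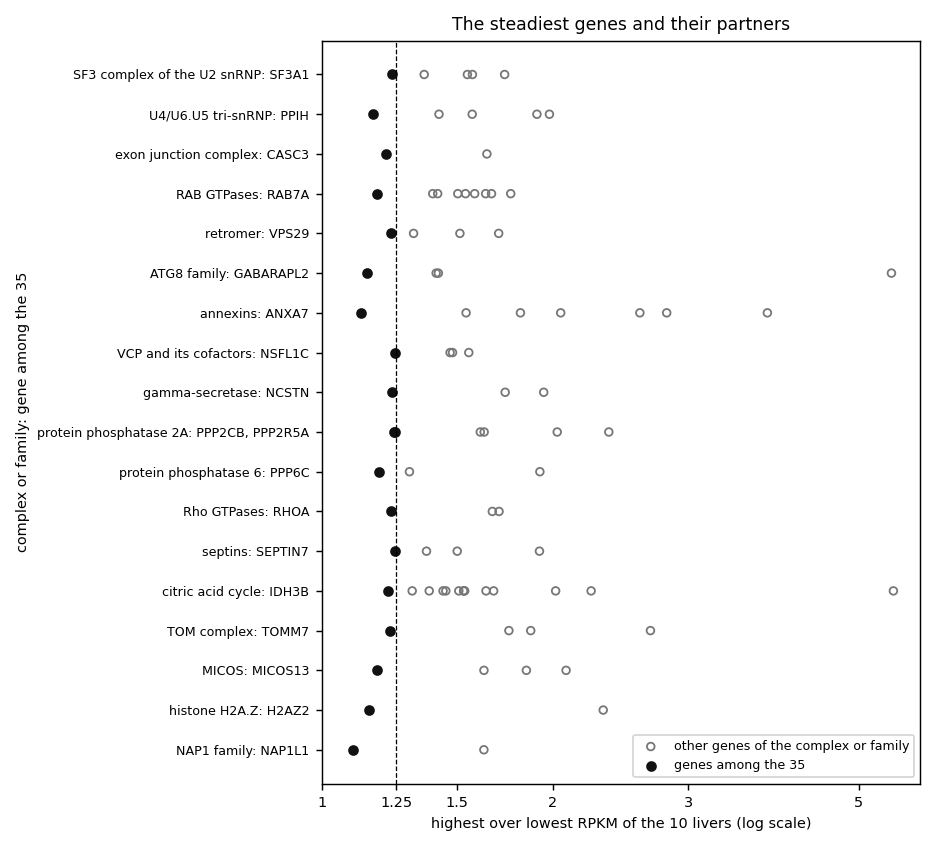
Ratio of the highest to the lowest RPKM of the 10 livers on a log scale for the members (black) and the other eligible genes of their complex or family (open circles). The members lie under the dashed line by the rule, and the 66 partners spread from 1.3 (PPP6R3) to 5.55 (SUCLA2).

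Lists of basic cell functions differed in how far their genes spread. Genes of RNA polymerase II and its general factors had the smallest median ratio of the lists of cell functions, 1.5 over 35 eligible genes, with 51.4% at 1.5 or less. None of them was among the 35 steadiest, and at the 1.39% of all eligible genes a list of this size need not hold any. Ubiquitin enzymes followed with 1.52 over 66 genes and 43.9% at 1.5 or less, also with 0 members. Endosome and retromer genes had a median of 1.57 over 34 genes, 2 of them members (5.88%, against 1.39% of the eligible genes), and kinases and phosphatases had 1.62 over 53 genes with 3 members (5.66%). Splicing and hnRNP genes had 1.61 over 65 genes with 2 members (3.08%), autophagy and mTOR genes 1.57 over 18 with 1 member, and mitochondrial import and expression 1.64 over 27 with 1 member. These shares rest on 1 to 3 members per list, and the lists were chosen with earlier results known, so nothing is read from them. The lists of mRNA decay and export (1.6), translation factors (1.65), chromatin (1.56) and actin and microtubules (1.69) held 0 members. So did vesicle coats and tethers (1.86) and aminoacyl-tRNA synthetases (2.13). The list named chaperonin and prefoldin (1.63), which also holds other chaperone and cochaperone genes such as HSPA8 and DNAJA1, held 0 as well. No gene of any list passed the comparison of high with low, since no gene of the whole table did.

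Several members are not on any of these lists, because the lists name families and not every protein of a process. Within a list the extremes could lie far apart. The RNA helicase gene EIF4A1 ranged 2.69-fold among translation factors whose steadiest gene, EIF2AK1, ranged 1.28-fold. Among kinases and phosphatases PPP1R3C, a glycogen-targeting subunit of protein phosphatase 1, ranged 11.2-fold. ACTG1, the gamma actin gene, ranged 4.29-fold and the ubiquitin-conjugating enzyme gene UBE2L6 8.76-fold.

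The lists of liver function and stress had wider median ratios. They held 0 members, which at 1.39% of eligible genes says nothing for lists this small. The 22 eligible hepatocyte genes had a median ratio of 2.26, and the widest ratio was 12.6 for the cytochrome gene CYP2E1. The 11 acute phase genes had a median of 3.38, from 1.51 for hemopexin (HPX) to 21.1 for ITIH4, an acute phase protein of pig plasma. The 11 genes of the unfolded protein response had 4.45, from 2.34 for DNAJB9 to 10.0 for CRELD2. Markers of other cell types also spread, with medians of 2.29 for 7 Kupffer cell and macrophage genes, 2.41 for 5 endothelial genes and 3.39 for 4 stellate cell and fibroblast genes. Summed levels of the matched markers ranged 1.76-fold for Kupffer cells and macrophages, 1.82-fold for endothelial cells, 2.29-fold for stellate cells and fibroblasts and 3.06-fold for T and NK cells over the 10 livers. In bulk tissue, fewer cells of a type and less RNA per cell cannot be told apart.

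**Figure D4:**
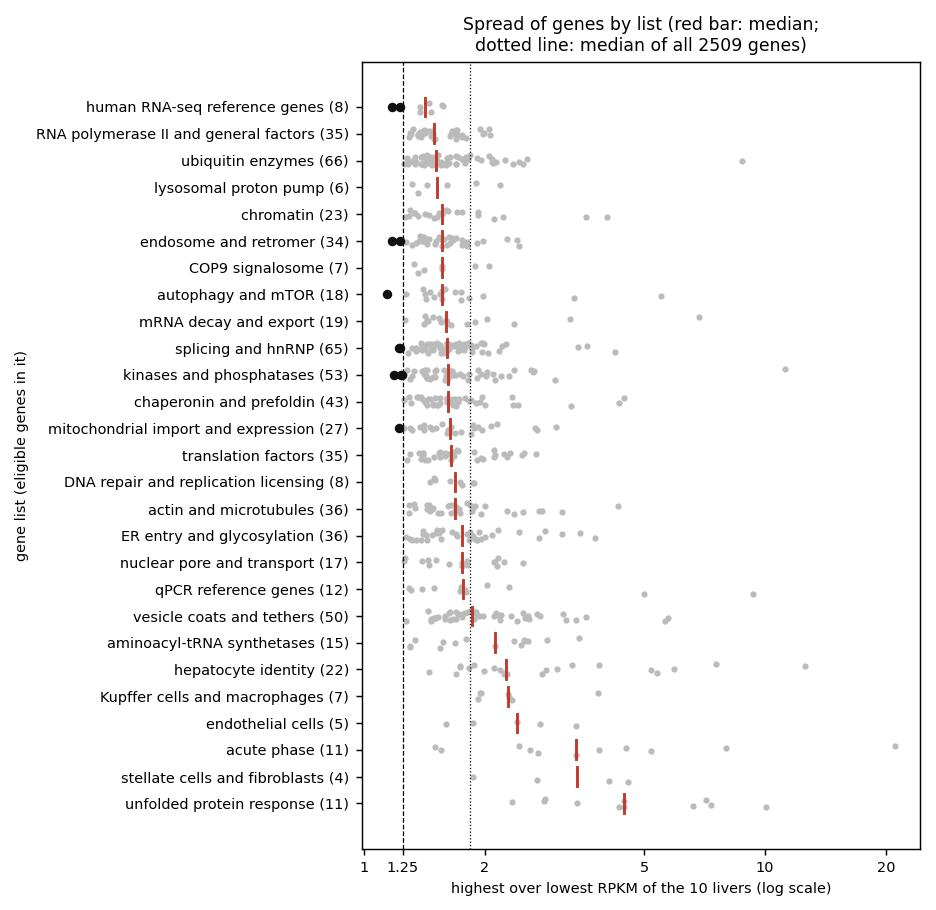
Ratio of the highest to the lowest RPKM of the 10 livers on a log scale for each eligible gene of the lists with at least 4 such genes, sorted by the median (red bar), with the 35 steadiest genes in black. Medians run from 1.42 for the human RNA-seq reference genes to 4.45 for the unfolded protein response, and the dotted line is the median of all eligible genes, 1.84.

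Genes in common use as references were looked up among the eligible genes. Of 23 genes often used to normalise qPCR, 15 were matched by name and 12 were eligible, and 0 of the 12 were members, where 1.39% of all eligible genes were, a share too small for 12 genes to tell apart. Their median ratio was 1.77 with 25% at 1.5 or less, against 1.84 and 21.7% for all eligible genes. The steadiest were HSP90AB1 (a cytosolic chaperone) with a ratio of 1.3, SDHA (a subunit of succinate dehydrogenase) with 1.31 and the glycolytic gene PGK1 with 1.40, which rank 101, 120 and 271 of the 2509 eligible genes. The glycolytic gene LDHA ranged 1.75-fold, TOP2B 1.80-fold, PPP2R1A 2.03-fold and YWHAZ 2.31-fold. Of the matched genes below 10 RPKM, IPO8 and POLR2A ranged 1.79-fold and 1.94-fold.

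The most used of these genes, ACTB and GAPDH, had ratios just under the median of 1.84 over all eligible genes. That they varied beyond the members follows from the rule. ACTB, the beta actin gene, had 365, 289.7, 393, 256 and 233 RPKM in high livers and 352, 395, 347, 228 and 234 RPKM in low livers, a ratio of 1.74 and rank 1076. GAPDH had 504, 379, 523, 374 and 660 RPKM in high livers and 595, 479, 668, 647 and 544 RPKM in low livers, a ratio of 1.79 and rank 1159. In both genes the values of the groups overlapped broadly. GUSB, a lysosomal glucuronidase gene, ranged 5-fold. TFRC, the transferrin receptor gene, which responds to iron, had 7.17, 10.1, 5.57, 12.7 and 7.52 RPKM in high livers and 26.7, 4.67, 20.7, 43.5 and 41.5 RPKM in low livers. Low replicate 2 was below every high liver and the other low livers were above them all. The log2 difference of TFRC was -1.31 (SE 0.49) with an adjusted p of 0.961 in limma, so it did not pass.

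A second list, of genes proposed as evenly expressed across human tissues in RNA sequencing, had a smaller median ratio. Of 9 such genes 8 were matched and eligible, and that median was 1.42. Members were 2 of the 8 (RAB7A and VPS29, 25%), against 1.39% of all eligible genes, and nothing is read from a share of so few genes. The same 2 genes are the members counted on the endosome and retromer list. Under the rescalings described below, each of them went over the limit at least once. The others ranged from 1.38-fold (C1orf43) to 1.57-fold (GPI). C1orf43 (ENSSSCG00000006554), named for its human locus, had 24.7, 25.5, 22.97, 25.7 and 22.8 RPKM in high livers and 20.2, 19.8, 18.6, 21.2 and 21.9 RPKM in low livers. Every high liver lay above every low one. Its log2 difference was 0.25 (SE 0.09), higher in 5 of 5 high livers, with an unadjusted p of 0.0217 and an adjusted p of 0.961 in limma, so this gene did not pass either. VCP had 103 ± 9.35 RPKM in high and 87.2 ± 9.40 RPKM in low (SD, n = 5 each), with an adjusted p of 0.961 in limma.

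**Figure D5:**
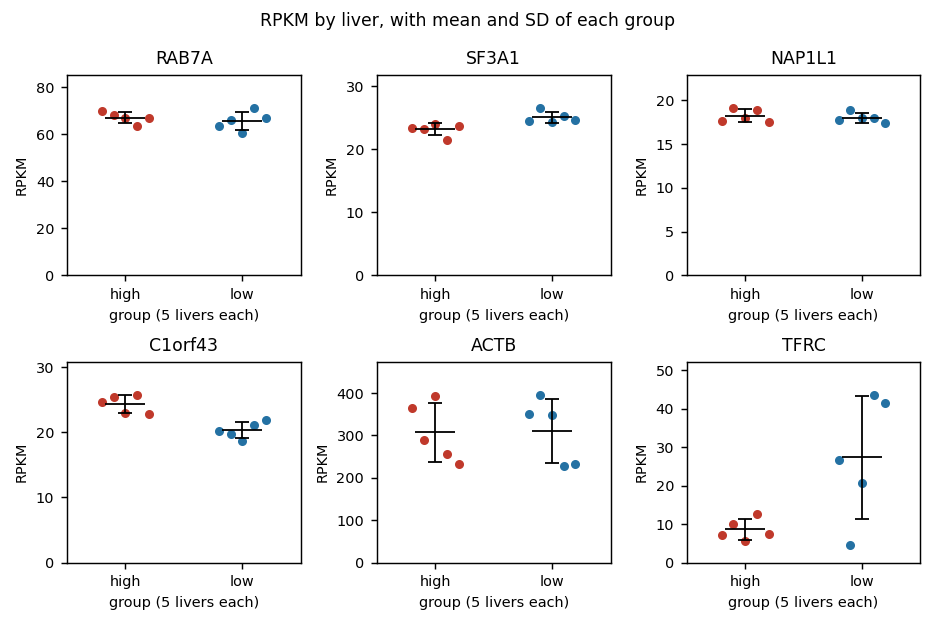
RPKM of each liver, in the order of replicate numbers, for the members RAB7A, SF3A1 and NAP1L1 and the reference genes C1orf43, ACTB and TFRC, with the mean and SD of each group (n = 5 each) and axes from 0. The members span at most 1.23-fold, while TFRC lies between 4.67 and 43.5 RPKM.

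High and low livers were compared to find transcripts that go with faster growth and more fat. Over the whole table limma called 0 of 10931 genes at an adjusted p under 0.05 (0% called), with 497 genes (4.55%) at an unadjusted p under 0.05. Of the 35 steadiest genes 0 were called and 0 had an unadjusted p under 0.05, which the small range they were chosen for would limit in any case. The mean on the log2 scale was higher in high for 15 of them and higher in low for 20. Their log2 differences ran from -0.11 (SF3A1) to 0.07 (IDH3B), with a median of -0.01, where the median over all tested genes was -0.0049. In size, the median difference of the members was 0.04, against 0.12 over all tested genes.

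After SF3A1, the members furthest towards low were IMPDH2 at -0.10, TOMM7 at -0.10 and CASC3 and ZNF330 at -0.08. Those furthest towards high were IDH3B at 0.07, PPP6C at 0.07, PIN4 at 0.05 and TMEM9B at 0.05. IMPDH2 averaged 13.1 ± 0.391 RPKM in high and 14.2 ± 1.03 RPKM in low, TOMM7 85.9 ± 4.37 RPKM in high and 92.0 ± 6.68 RPKM in low, and IDH3B 23.4 ± 1.73 RPKM in high and 22.3 ± 1.06 RPKM in low (SD, n = 5 each). Each of these 3 differences was close to or below the larger SD, and the groups overlapped. In the authors' deposited table the signed fold changes of the 35 genes lay between -1.05 and 1.08. That table gave 854 of 25009 genes a p under 0.05 (3.41%), among them 2 of the 35, IMPDH2 with a p of 0.03 and SF3A1 with a p of 0.04, each with a fold of 1.08. The sources used here do not say what fold and p were computed from, and in both genes the mean was higher in low.

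The small variation of the members did not fall on a single liver. Of the 350 values, 91.4% lay within 10% of the gene's own mean, against 40.7% of the values of all eligible genes. The members were chosen for a small range, so this contrast follows from the rule. Every liver held the highest value of at least 1 member, from 1 gene in high replicates 1, 3 and 4 to 9 genes in high replicate 5. The lowest values were spread over 8 livers, with 7 each in high replicate 1 and low replicate 3, and none in high replicate 2 or low replicate 2. The median member stood between 97.2% (high replicate 4) and 104% (low replicate 2) of its own mean, and between 11 and 26 of the 35 genes lay above their own mean in a given liver.

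Among all eligible genes, which were not chosen for a small range, the livers moved further apart. This difference from the members also follows from the rule. The median eligible gene stood at 88.2% of its own mean in low replicate 5 and at 107% in low replicate 2, where the median member stood at 98.4% and 104%. In low replicate 4, which had the highest mitochondrial share, the median member stood at 101% and the median eligible gene at 97.0%. The members together held 0.160% to 0.175% of the summed RPKM, with the highest share in high replicate 5.

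The choice of scale decided many members. When each library was divided by its median-of-ratios factor, 78 genes met the limit, 17 of them from the 35. With upper-quartile scaling 65 genes met it, 13 of them from the 35, and with scaling to the sum without the mitochondrial genes 38 met it, 22 of them from the 35. The 8 genes that met the limit on the deposited scale and under all 3 rescalings were NAP1L1, ANXA7, PIN4, GABARAPL2, PPIH, RHOA, NCSTN and PPP2CB. Under median-of-ratios scaling GABARAPL2 ranged 1.14-fold, NCSTN 1.17-fold, ANXA7 1.18-fold, RHOA 1.18-fold and NAP1L1 1.19-fold. RAB7A ranged 1.23-fold and 1.24-fold under the first 2 rescalings and 1.26-fold under the third. VPS29 ranged 1.34-fold and 1.36-fold under the first 2 and 1.24-fold under the third. In contrast, 9 members met the limit on the deposited scale alone, among them H2AZ2, TOMM7 (1.38-fold under median-of-ratios scaling) and BUB3 (1.37-fold). The reference genes ACTB and GAPDH ranged 1.64-fold to 1.87-fold and 1.78-fold to 1.82-fold under the 3 rescalings. Without high replicates 1 and 5, the libraries with the most GFAP, 83 genes met the limit on the deposited scale, 34 of the 35 among them. Leaving out libraries cannot widen a ratio, so a member could be lost only through the minimum level, and nothing is read from that count.

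The rule reads the same 10 values that the following split divides, so the split is a description. Of the 2509 eligible genes, 450 stayed within the same limit of 25% over the 5 high livers, 193 over the 5 low livers and 83 in each group. The 35 members are among these 83 by the rule, and the other 48 went over the limit over all 10 livers. Leaving the members out, 48 of the 415 genes within the limit in high livers were also within it in low livers (11.6%), against 110 of the 2059 genes over it in high livers (5.34%). From the other side, 48 of the 158 genes within the limit in low livers were within it in high livers (30.4%), against 367 of the 2316 others (15.8%). Leaving the members out removes only genes within the limit in both groups, so it lowers the first share of each pair and not the second. Nothing is read from these shares.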

How the data were processed

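In 10 pig liver libraries (5 high, 5 low) RNA was sequenced, and the authors deposited RPKM values per Ensembl gene, per the file headers. Per the submitters' processing notes the genome was Sscrofa10.2. The aligner, the counter and the annotation used were not given in the sources at hand. Read depth is unknown. The library kit named in the labels' protocols does not mark strand, so overlapping antisense genes cannot be told apart. That deposited table also held a signed fold change, read as a score, and a p-value per gene. In it 624 RPKM values of 92 genes held an extra dot between digit groups, which was removed. Symbols came from a table of identifiers, which matched 11779 of 25009.

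Members, lists, roles and families were chosen with earlier results of these data known. The design also foresaw promoter and protein sequences, which are not used here. Named were all members, the reference genes, the steadiest and least steady genes of lists described and the partners looked up. High was compared with low over all genes averaging 1 RPKM or more by limma 3.58.1 (R 4.3.3, eBayes with trend, two-sided) on log2(RPKM + 1), a scale that understates changes of low genes, with Benjamini-Hochberg adjustment at 0.05. Replicate numbers follow accession order and pair nothing. The fit and the rule were tested on simulated data. Alternatives were other scalings, limits, filters, a pseudocount of 0.1 and leaving out libraries.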

Additional observations from a re-analysis of the deposited data

Results flagged for a closer look

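Values that stood apart from the other 4 of their group were looked for in 114 groups of 5 values (the members, the reference genes and the median member level, each in high and in low). Chance sets apart about 1 in 20 such groups, and 7 values were found. PIN4 had 10.76 RPKM in high replicate 3, where the other high livers had 11.65 to 11.99 RPKM. ATP2C1 had 12.64 RPKM in high replicate 5, against 10.95 to 11.32 RPKM in the other high livers. SF3A1 had 21.54 RPKM in high replicate 4 and 23.29 to 24 RPKM in the other high livers. MICOS13 had 35.64 RPKM in low replicate 3, against 30.99 to 32.28 RPKM in the other low livers. ODR4 had 10.75 RPKM in low replicate 3 and 12.54 to 13.15 RPKM in the others of that group. TOMM7 had 80.4 RPKM in low replicate 1 and 92.4 to 96.5 RPKM in the other low livers. The reference gene GPI had 97.1 RPKM in high replicate 5, against 64.9 to 74.0 RPKM in the other high livers.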

How the results depend on the processing

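The count of 35 genes followed the limits and the scale. It was 78 with median-of-ratios scaling and 65 with upper-quartile scaling, and within 1.5 times of 35 without the mitochondrial genes (38) and without the cap of 300 (35). It was 14 with a limit of 1.2 on the ratio, 99 with 1.3, 59 with a mean of 5 RPKM or more and 18 with 20 or more. The 35 genes with the smallest coefficient of variation shared 27 with the members. Leaving out 1 library gave 41 to 78 genes, by construction mostly more, since fewer values have to agree. The counts were 54 without high replicate 1, 58 without high replicate 5, 78 without low replicate 2, 70 without low replicate 4 and 76 without low replicate 5. Without both high replicates 1 and 5, an alternative chosen after seeing the data, it was 83, with 34 of the 35 kept. Keeping them is nearly fixed by construction, since a ratio cannot widen when libraries are left out. The comparison of high with low called 0 genes in limma under every alternative run, with 182 to 912 genes at an unadjusted p under 0.05. Of 560 log2 differences of members under these alternatives, 0 moved by more than 1 SE. The small range the members were chosen for limits such moves in any case. Count tests were not run because no counts were analysed here. No paired analysis was possible because the replicate numbers were given in accession order. Depth is unknown, so how much of a ratio is counting error was not tested.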

Other observations

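The limits on level and ratio were also met by 27 genes that the rule left out, 21 of them without a symbol and 6 in an excluded family. The 6, named after their values were seen, were the mitochondrial ribosomal protein gene MRPL18 (36.2 RPKM, ratio 1.19), the proteasome genes PSMB1 (108 RPKM, 1.18) and PSMD13 (35.1 RPKM, 1.22), and the respiratory chain genes NDUFB8 (52.9 RPKM, 1.23), NDUFA11 (14.6 RPKM, 1.245) and COX7A2 (118 RPKM, 1.24). In all, 62 of the 3912 genes averaging 10 RPKM or more (1.58%) met both limits, close to the 1.39% among the eligible genes. PSMB1 and COX7A2 lay above 100 RPKM, where none of the 35 members did.

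Of the 35 members, 31 were found by symbol in a RefSeq gene table of Sscrofa11.1, and no 2 of these 31 were neighbouring protein-coding genes there.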
